A study of Mus musculus with 2 samples.

Results

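The genes described here encode the proteins of the mitochondrial ribosome. They were chosen by symbol, as Mrpl or Mrps followed by a number and, where present, a letter, with pseudogenes left out. This gave 78 of the 50508 genes in the table, 49 with an Mrpl symbol (large subunit) and 29 with an Mrps symbol (small subunit). E14 cells, which are mouse embryonic stem cells of strain 129/Ola, were used at passages 15 to 18 on gelatin-coated plates, with 15% serum and 1000 U/ml LIF, a cytokine that holds them undifferentiated. They received either a scramble siRNA or a Mettl8 siRNA by lipid transfection, and their total RNA was collected at 72 h. Each condition has 1 library in the table, although the series record mentions triplicates, so values come without replicate error and the conditions could not be tested against each other. Mettl8 itself goes against the second label: the library labelled Mettl8 siRNA had 100.3 FPKM of it, and the scramble library 0.67 FPKM. Directions are therefore given between the libraries as labelled, and paired values are always in the order library labelled scramble siRNA, then library labelled Mettl8 siRNA. FPKM stands for fragments per kilobase of gene length and per mega (M) of reads.

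Mitochondria have their own ribosome, which translates the few messenger RNAs of the mitochondrial genome into core subunits of the respiratory chain. Its ribosomal RNAs are made inside the organelle, while all of its proteins are encoded in the nucleus, made in the cytosol and imported. Much of the RNA of a bacterial ribosome has been lost from it, and many proteins without a bacterial counterpart were gained, so its proteins fall into homologs of bacterial ribosomal proteins and mitochondria-specific ones. The symbol does not always give the place. In the solved mammalian structures the Mrps30 and Mrps18a proteins sit in the large subunit, and the Mrps36 protein is a component of the 2-oxoglutarate dehydrogenase complex and not of the ribosome.

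Promoters of these genes held the letters of ETS, YY1 and NRF1 motifs more often than promoters of protein-coding genes in general, with no test made. RefSeq windows on GRCm38.p6, from 250 bases before to 50 bases after a start, were matched by symbol for 69 of the 78 genes, in 75 windows. The letters searched, on both strands, were CCGGAAG for ETS factors such as GABPA, AAGATGGC for YY1 and GCATGCGC for NRF1. No motif contains another. The ETS letters were in 26 of the 75 windows (34.7%), against 11.6% of 21263 windows of protein-coding genes. The YY1 letters were in 12 (16%), against 3.05%, and the NRF1 letters in 8 (10.7%), against 3.52%. At least 1 of the 3 was in 38 windows (50.7%), against 16.7%. TATAAA was in 5 windows (6.67%), against 12.6%, and CCAAT in 30, or 40%, against 38.2%. The GC box GGGCGG, in 52.0% against 46.2%, and the E-box CACGTG, in 9.33% against 7.84%, were near the background. A match is a run of letters and was not shown to be a bound site. Genes without a window were Mrpl54, Mrpl15, Mrpl4, Mrpl38, Mrpl13, Mrpl19, Mrps28, Mrps34 and Mrps35.

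The 5 windows below are whole and read 5′ to 3′ on the gene's strand. They belong to genes whose differences are described further on, were picked after the values were seen, and all hold a match. They do not stand for all genes that differed. Of the other genes with larger differences, Mrps36, Mrps25, Mrpl20, Mrpl14 and Mrps6 have none of these motif letters, while Mrpl53, Mrps21 and Mrps24 have a match. Capitals mark the motif letters, on either strand. Mrps12 (chr7:28741772-28742071, minus strand) holds a YY1 and an ETS match and Mrpl51 (chr6:125191950-125192249, plus strand) an ETS match. Mrps7 (chr11:115603890-115604189, plus strand) and Mrpl37 (chr4:107066817-107067116, minus strand) each hold a YY1 match, and Mrpl39 (chr16:84735195-84735494, minus strand) NRF1 matches on both strands that overlap.
Mrps12: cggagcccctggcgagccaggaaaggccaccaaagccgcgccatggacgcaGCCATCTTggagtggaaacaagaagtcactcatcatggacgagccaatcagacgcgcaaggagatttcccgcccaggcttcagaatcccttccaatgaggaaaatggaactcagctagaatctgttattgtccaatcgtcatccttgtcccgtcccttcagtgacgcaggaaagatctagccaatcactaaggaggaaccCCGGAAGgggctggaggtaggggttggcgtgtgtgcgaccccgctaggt
Mrpl51: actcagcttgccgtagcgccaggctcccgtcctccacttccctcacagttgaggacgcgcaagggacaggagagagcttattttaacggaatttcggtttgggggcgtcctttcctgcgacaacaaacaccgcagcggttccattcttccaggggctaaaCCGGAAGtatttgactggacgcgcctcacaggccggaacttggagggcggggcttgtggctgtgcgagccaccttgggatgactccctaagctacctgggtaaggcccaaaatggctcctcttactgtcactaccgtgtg
Mrps7: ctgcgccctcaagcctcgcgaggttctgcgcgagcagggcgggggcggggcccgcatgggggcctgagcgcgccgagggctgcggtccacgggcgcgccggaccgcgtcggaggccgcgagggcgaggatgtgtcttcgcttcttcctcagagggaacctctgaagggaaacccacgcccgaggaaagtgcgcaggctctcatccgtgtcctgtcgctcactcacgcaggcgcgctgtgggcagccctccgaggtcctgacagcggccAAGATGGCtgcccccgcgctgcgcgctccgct
Mrpl39: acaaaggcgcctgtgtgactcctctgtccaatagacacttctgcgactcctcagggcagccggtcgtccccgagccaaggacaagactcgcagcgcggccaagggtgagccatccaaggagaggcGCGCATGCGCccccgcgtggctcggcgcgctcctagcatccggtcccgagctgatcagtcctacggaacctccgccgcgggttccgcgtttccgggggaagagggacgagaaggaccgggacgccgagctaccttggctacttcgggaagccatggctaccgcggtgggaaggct
Mrpl37: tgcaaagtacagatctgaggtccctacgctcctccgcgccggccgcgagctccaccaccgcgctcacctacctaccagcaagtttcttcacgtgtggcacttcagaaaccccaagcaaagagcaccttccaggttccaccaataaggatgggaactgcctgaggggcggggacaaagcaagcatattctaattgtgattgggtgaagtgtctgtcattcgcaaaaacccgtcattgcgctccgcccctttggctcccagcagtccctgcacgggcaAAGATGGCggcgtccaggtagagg

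The order of levels was nearly the same in both libraries. The Pearson correlation of log2 FPKM across the 78 genes was 0.99, between libraries made and scaled in the same way. All 78 had a mean FPKM of at least 1. Of them, 9 had a mean of at least 20 FPKM, 51 lay from 5 to 20 and 18 lay below 5. Reads per gene, rebuilt from the FPKM steps and summed over both libraries, ran from 160 to 4685 with a median of 1104.5. Along the order of levels, 75 of the 77 neighbouring genes had overlapping 95% counting intervals in the library labelled scramble siRNA and 74 of 77 in the other, so ranks next to each other are not resolved. These intervals cover counting error only.

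**Figure D1:**
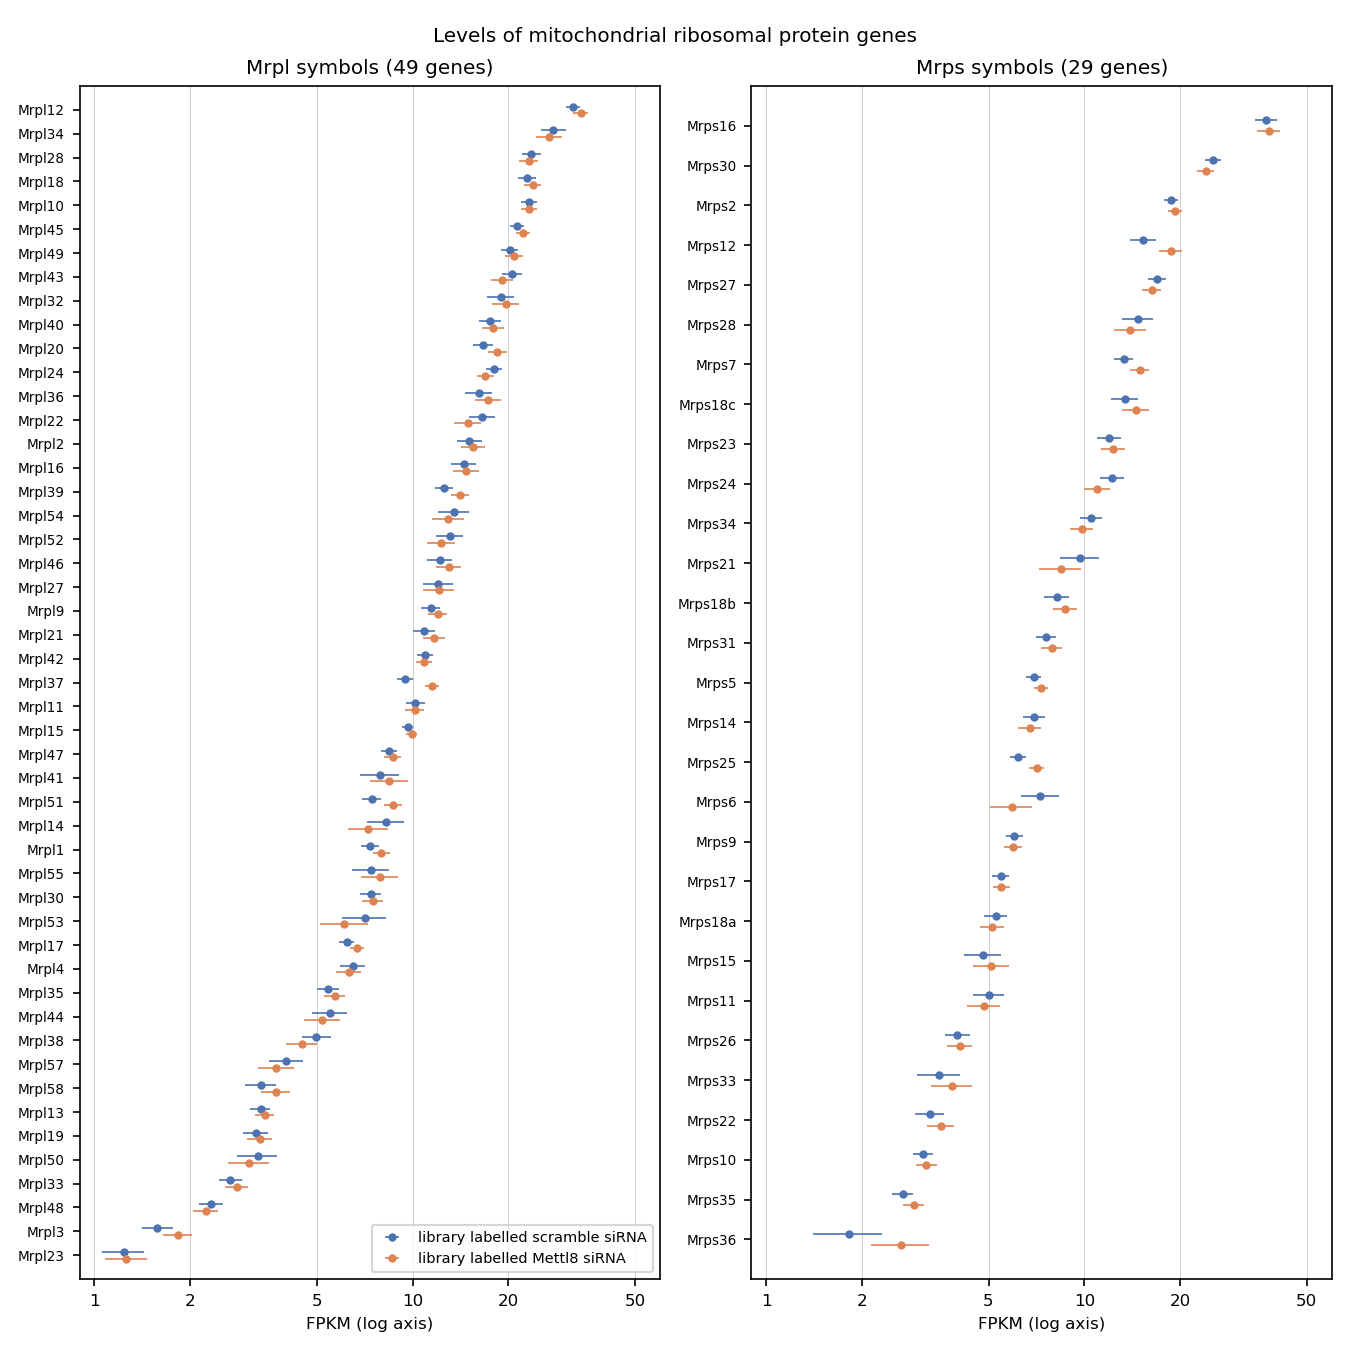
Level of each of the 78 genes in FPKM (log axis) in the 2 libraries, with exact 95% Poisson intervals as horizontal bars, in order of the mean level within each symbol group. Mrps16 and Mrpl12 stand highest and Mrpl23 lowest, and in nearly every row the points of both libraries lie close together.

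At the top of the small subunit stood Mrps16, a homolog of a bacterial protein and a human disease gene, at 37.2 FPKM (interval 34.3 to 40.3) and 37.9 FPKM (34.9 to 41.1). Mrps30 followed at 25.3 and 24.1 FPKM and Mrps2 at 18.7 and 19.2 FPKM. The large subunit was led by Mrpl12, the flexible stalk protein that meets the translation factors, at 32.0 (30.3 to 33.7) and 33.7 FPKM (32.0 to 35.5). Mrpl34 was at 27.7 and 26.8 FPKM and Mrpl28 at 23.6 and 23.2 FPKM. For each of these 6 genes the ratio between the libraries had a counting interval that held 1.

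At the bottom of the large subunit were Mrpl23, a protein of the rim of the exit tunnel, at 1.24 and 1.26 FPKM, Mrpl3 at 1.58 and 1.83 FPKM and Mrpl48, of the central protuberance, at 2.33 and 2.24 FPKM. Mrpl3 encodes a protein that reaches towards the peptidyl transferase centre. The lowest small-subunit symbols were Mrps36 at 1.82 and 2.65 FPKM, Mrps35 at 2.69 and 2.91 FPKM and Mrps10 at 3.11 and 3.19 FPKM. From Mrpl23 to Mrps16 the mean level spanned 30.1-fold.

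A part of this span went with the gene length used for the FPKM. The deposited length equals the union of all exons in GENCODE M21 for 65 of the 78 genes and differs for the other 13, whose annotation is not known. Mrpl33 had a deposited length of 7326 bases and a main transcript of 478 bases. For 18 genes the deposited length was more than 2 times that of the main transcript. The main transcript was the APPRIS principal transcript of the best rank in GENCODE M21, and the longest where several shared that rank. Its length was set to the deposited length where that was shorter. Divided by the main transcript length, the reads of Mrpl33 gave 41.1 and 42.9 per kilobase and M reads in place of 2.68 and 2.80 FPKM. Mrpl42 became the highest gene, at 60.4 and 60.1 on this scale (10.9 and 10.9 FPKM), and Mrps10 was at 24.7 and 25.3. Such values can be too high, because reads in exons outside the main transcript are counted too. They can be too low where the reads come from a transcript shorter than the one taken. For 11 genes the deposited length was shorter than the principal transcript, among them Mrps16 (566 against 2572 bases) and Mrps30 (1590 against 3319 bases). The scale leaves the levels of these 11 as they were, and the place of Mrps16 and Mrps30 near the top rests on the shorter length. Mrpl3 was lowest on this scale, at 2.65 and 3.07, and Mrpl12 was at 37.2 and 39.3. The span was 21-fold, and the SD of the log2 level was 0.98, against 1.06 with the deposited length.

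**Figure D2:**
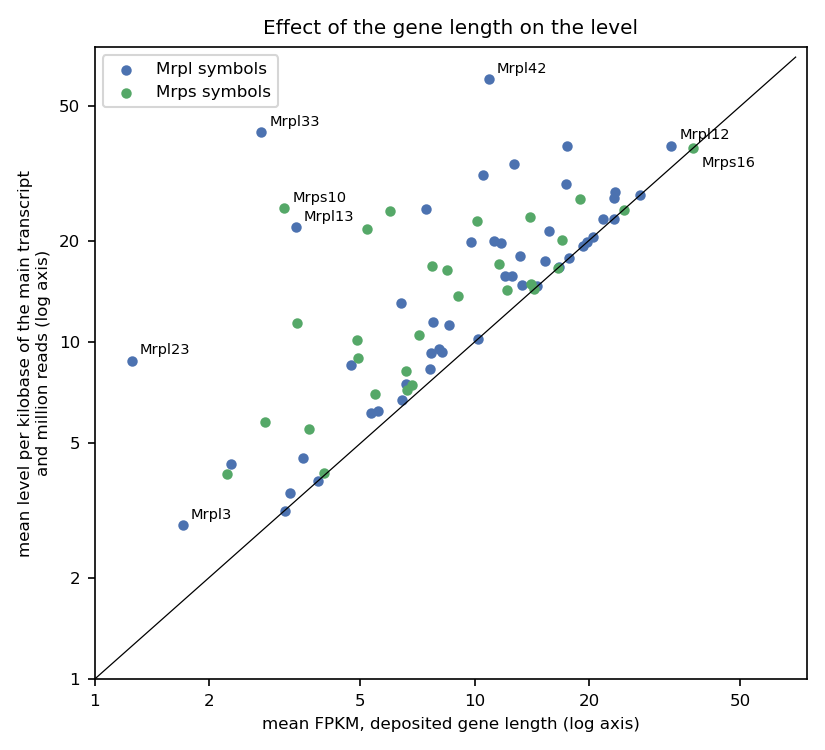
Mean FPKM with the deposited gene length (x, log axis) against the mean level per kilobase of the main transcript and M reads (y, log axis), 1 point per gene, with a line where both are equal. Mrpl33, Mrpl13, Mrps10, Mrpl23 and Mrpl42 lie far above the line, while Mrps16, whose length was kept as deposited, lies on it.

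Large-subunit genes had the higher median level. It was 10.2 and 10.9 FPKM, against 7.27 and 7.31 FPKM for small-subunit symbols, ratios of 1.40 and 1.49. The ranges overlapped almost whole, from 1.24 to 32.0 FPKM and from 1.82 to 37.2 FPKM in the library labelled scramble siRNA. With the main transcript length the medians were 16.2 and 17.3 for the large and 14.7 and 14.4 for the small subunit, ratios of 1.1 and 1.2. With Mrps30 and Mrps18a counted as large and Mrps36 left out, the FPKM ratios were 1.37 and 1.43. The genes are not replicates of a subunit, and no test was made of this difference. The ribosomal RNAs that these proteins bind were listed at 522.2 and 480.9 FPKM for mt-Rnr1, of the small subunit, and at 63331 and 63411 FPKM for mt-Rnr2, of the large one. The ratios of mt-Rnr1 and mt-Rnr2 between the libraries were 0.921 (0.899 to 0.943) and 1.001 (0.9996 to 1.003). These genes lie next to each other in the mitochondrial genome, and the cause of their unequal values was not tested.

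Between the libraries the genes of the mitochondrial ribosome differed little. Each difference is the second library's log2(FPKM + 1) less the first library's, which makes changes of low genes look smaller than they are, and sizes of 1.2-fold and 1.5-fold are on this scale. The median over the 78 genes was 0.032, against 0.013 over the 13243 genes of mean FPKM 1 or more and 0.013 over the 9965 protein-coding ones. Higher were 49 genes (62.8%) and lower 29 (37.2%); of all genes 54.1% were higher and 45.0% lower, and of protein-coding genes 54.5% and 44.5%. After rescaling to equal FPKM sums, 68 of the 78 were higher and 10 lower, but then 79.1% of protein-coding genes were higher too. The plain ratio lay within 1.1-fold for 61 of the 78. The summed reads of all 78 genes were 51422 and 51790, which is 1.03 times as many per M reads in the library labelled Mettl8 siRNA (counting interval 1.02 to 1.04). For protein-coding genes together this ratio was 1.01.

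By subunit, the median difference was 0.033 for large-subunit symbols, with 31 of 49 (63.3%) higher, and 0.028 for small-subunit symbols, with 18 of 29 (62.1%) higher, beside 54.5% of protein-coding genes. Among members of mean FPKM 5 or more, the small-subunit median was 0.0067. The summed reads gave ratios of 1.03 (1.02 to 1.05) and 1.02 (1.00 to 1.05). Fewer cells with a transcript and less of it per cell cannot be told apart in such bulk RNA. At least 1.2-fold higher were 3 of the 78 (3.85%), namely Mrps36, Mrps12 and Mrpl37, the last exactly at the limit, and 0 were 1.2-fold lower. Among all genes 4.48% were that much higher and 5.01% lower, and among protein-coding genes 1.03% and 1.58%. No member reached 1.5-fold in either direction, as against 2.11% of all and 0.1% of protein-coding genes.

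**Figure D3:**
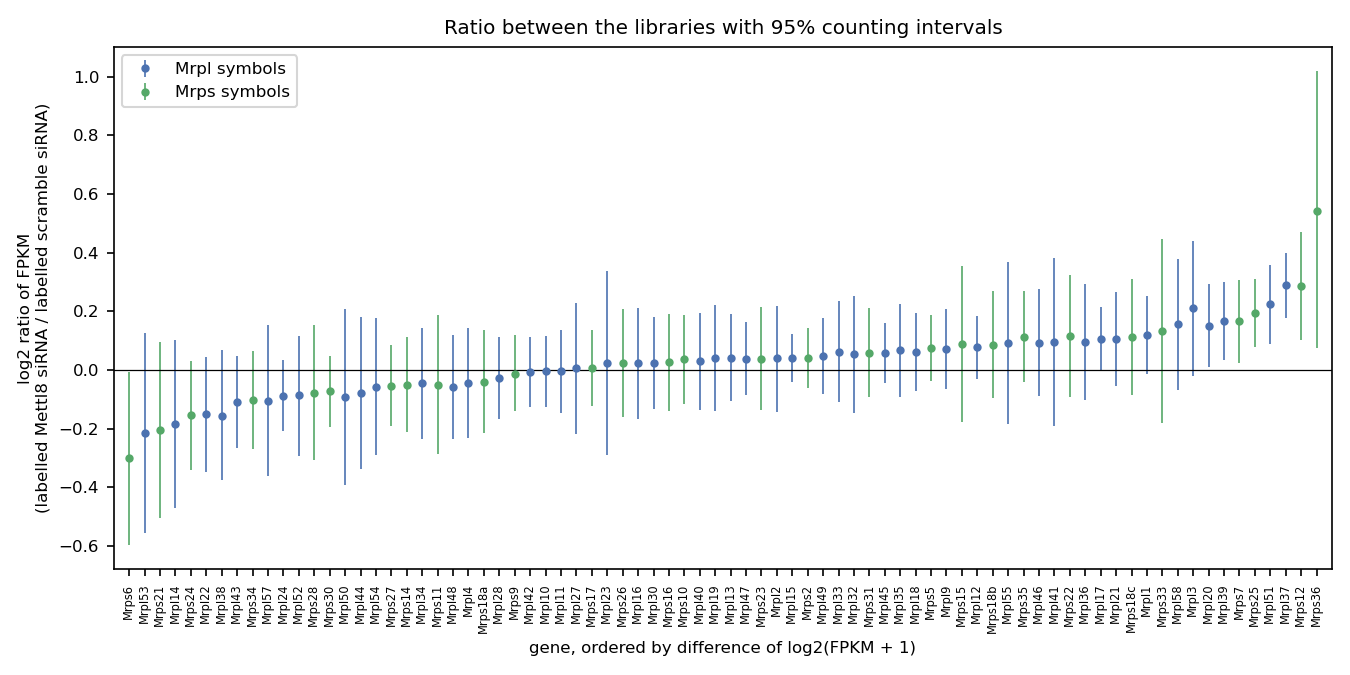
Log2 ratio of FPKM between the libraries for each of the 78 genes, in order of the difference of log2(FPKM + 1), with exact 95% counting intervals as vertical bars and subunits by symbol in 2 colours. Bars of 69 genes cross 0, those of 8 genes lie above it and that of Mrps6 lies below it.

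For 69 genes the counting interval of the ratio held 1. It lay above 1 for 8 (10.3%) and below 1 for 1 (1.28%), where all genes had 11.6% above and 7.85% below, and protein-coding genes 13.8% and 8.76%. The members' share above 1 was thus near the background, and the share below 1, which is 1 gene, smaller. Such shares also depend on the reads per gene, which were not matched between the sets. Of 8926 protein-coding genes within the members' range of mean level, 1141 had an interval above 1 and 717 below. With 1 library per condition these intervals compare the libraries and not the conditions.

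Mrps12, the homolog of the bacterial decoding-centre protein in which streptomycin resistance arises, had 453 and 540 reads. Its level was 15.3 FPKM (13.9 to 16.8) and 18.7 FPKM (17.1 to 20.3), a ratio of 1.22 (1.07 to 1.38) and a log2 difference of 0.27. The intervals of its levels did not overlap. Its place is chromosome 7, 28739641 to 28741820, minus strand, in GENCODE M21 on GRCm38. It shares its start region with Sars2, the mitochondrial seryl-tRNA synthetase gene, whose start lies 172 bases away on the other strand. Sars2 was 5.45 and 5.77 FPKM, a ratio of 1.06 (0.936 to 1.2).

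Mrpl37, a mitochondria-specific protein of the large subunit, was 9.45 and 11.5 FPKM. The ratio was 1.22 (1.13 to 1.32) on 1200 and 1432 reads, and the intervals of its levels did not overlap either. The gene spans chromosome 4, 107055874 to 107066868, minus strand, and none of its exons is shared with another annotated gene. Mrps36 had the largest difference, 0.37, but on 66 and 94 reads (ratio 1.46, interval 1.05 to 2.03), and it belongs to another complex. Its pseudogenes Mrps36-ps1, Mrps36-ps2 and Mrps36-ps3 had at most 4 reads in either library, and reads of such copies may be shared.

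Mrpl51 was 7.45 and 8.70 FPKM (ratio 1.17, 1.06 to 1.28), and Mrps25 was 6.18 and 7.08 FPKM (ratio 1.15, 1.06 to 1.24). Both encode mitochondria-specific proteins, of the large and the small subunit. Of the exon bases of Mrps25, 69.8% are shared with Nr2c2, a nuclear receptor gene at 3.55 and 4.11 FPKM (ratio 1.16, 1.08 to 1.24), and the strand setting is not given, so the values of Mrps25 are uncertain. Also above 1 were the intervals of Mrps7, a homolog of a protein of the bacterial subunit's head (13.3 and 14.9 FPKM), Mrpl39 (12.6 and 14.1 FPKM) and Mrpl20 (16.6 and 18.5 FPKM), the homolog of an early rRNA-binding protein. The lower bounds of these 3 ratios were 1.02, 1.02 and 1.01.

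On the lower side, Mrps6 was 7.27 FPKM (6.34 to 8.31) and 5.91 FPKM (5.06 to 6.85). Its ratio of 0.813 (0.661 to 0.996) rests on 218 and 173 reads, and its interval was the one that lay below 1. Of the annotated exon bases of Mrps6, 19.9% are shared with Slc5a3, an inositol transporter gene, and Gm49711 together. Slc5a3 was 1.09 and 0.95 FPKM. Mrpl53 (7.07 and 6.10 FPKM), Mrps21 (9.70 and 8.42 FPKM), Mrpl14 (8.26 and 7.27 FPKM) and Mrps24 (12.2 and 11.0 FPKM) followed with log2 differences of -0.18, -0.18, -0.16 and -0.14. Their intervals all held 1. Of the exon bases of Mrpl14, 11.2% are shared with Tmem63b, at 6.33 and 5.03 FPKM (ratio 0.795, 0.720 to 0.877). Of those of Mrps24, 15.4% are shared with Urgcp, at 2.22 and 2.11 FPKM. Of the exon bases of Mrpl53, 88.0% lie in other annotated genes as well, and the same holds for 77.8% of those of Mrps34.

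Grouped by ancestry, the classes had small median differences of both signs, and no test was made between them. Of the large-subunit homologs of bacterial proteins, 22 of 30 were higher, with a median of 0.035, and of the mitochondria-specific large-subunit genes 9 of 20, with a median of -0.023. In the small subunit 8 of 15 bacterial homologs were higher, with a median of 0.0067, and 7 of 9 mitochondria-specific genes, with a median of 0.053. The share over protein-coding genes was 54.5%, which is also the background for the as-labelled counts of higher genes given below. Over both subunits, 30 of 45 bacterial homologs and 16 of 29 mitochondria-specific genes were higher, with medians of 0.030 and 0.029. With equal FPKM sums the 4 counts, in the same order, were 28 of 30, 16 of 20, 12 of 15 and 8 of 9, and all 4 medians were above 0, from 0.057 to 0.14. With that scaling 79.1% of protein-coding genes were higher too, with a median of 0.090. This is also the background for the counts with equal FPKM sums given below. With the median ratio of protein-coding genes set to 1, the median of the small-subunit bacterial homologs was -0.0063.

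**Figure D4:**
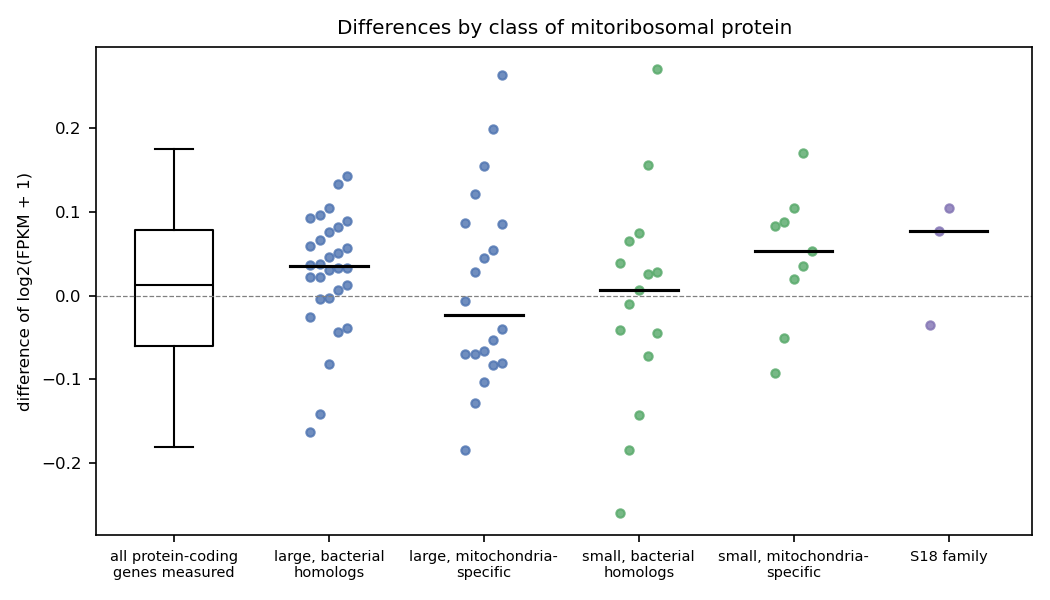
Difference of log2(FPKM + 1) between the libraries, 1 point per gene, by class of mitoribosomal protein, with the median of each class as a line. The box at the left gives the median and the 25th to 75th percentile of 9965 protein-coding genes, with whiskers at the 5th and 95th. The class medians run from -0.023 to 0.078 and the points of all classes overlap. With equal FPKM sums every class median is above 0, as is the median of protein-coding genes (0.090).

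By position in the large subunit, the stalk and the factor-binding centre had 1 of 4 genes higher (3 of 4 with equal FPKM sums). Mrpl10, which anchors the stalk, was 23.3 and 23.2 FPKM, and Mrpl11, the homolog of a bacterial protein of the factor-binding centre, 10.2 and 10.2 FPKM. Mrpl12 was the higher one (ratio 1.06, 0.980 to 1.14). The stalk protein was the most abundant of these 4 transcripts in both libraries. In the bacterial ribosome its homolog is present in several copies per particle.

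Near the peptidyl transferase centre and the exit tunnel, Mrpl2 was 15.1 and 15.5 FPKM and Mrpl4 6.5 and 6.3 FPKM. Of 8 genes for the tunnel exit and the contact with the inner membrane, 5 were higher, with a median of 0.023 (7 of 8 with equal FPKM sums). Mrpl45, which ties the ribosome to that membrane, was 21.3 and 22.2 FPKM, and Mrpl44, a protein with a ribonuclease III fold, 5.49 and 5.20 FPKM. The central protuberance had 5 of 8 genes higher and a median of 0.018 (7 of 8 with equal FPKM sums). Of the 8 tunnel-exit genes, Mrpl39 had a ratio with an interval above 1 (1.02 to 1.23), while the intervals of Mrpl2, Mrpl4, Mrpl45 and Mrpl44 held 1.

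Mrpl32, which an inner-membrane protease must cleave before it can be assembled, was 18.9 and 19.7 FPKM. Mrpl58, a peptidyl-tRNA hydrolase that frees stalled ribosomes and is built into the large subunit, was 3.34 and 3.72 FPKM (ratio 1.11, 0.953 to 1.30). Mrpl57 was 4.01 and 3.73 FPKM. In the small subunit, Mrps22, mutated in a human respiratory chain disease, was 3.27 and 3.54 FPKM and Mrps11 was 5.0 and 4.83 FPKM. None of these differed beyond counting error.

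The 3 genes of the S18 family derive from 1 bacterial protein, and all 3 products are found in the mammalian ribosome, at different places. Mrps18c, in the place of the bacterial protein, was 13.4 and 14.5 FPKM, Mrps18b was 8.21 and 8.72 FPKM and Mrps18a, in the large subunit, 5.27 and 5.12 FPKM. Counting intervals of the 3 levels did not overlap within either library. With the main transcript length in place of the deposited one, the order changed: Mrps18c was at 22.6 and 24.5, Mrps18a at 22.0 and 21.4 and Mrps18b at 15.9 and 16.9. The ratios between the libraries were 1.08, 1.06 and 0.972, each with an interval that held 1.

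Of 5 measured mitoribosomal proteins under other symbols, 4 were higher (5 with equal FPKM sums), with a median of 0.077, and the intervals of 2 ratios lay above 1. Among protein-coding genes 54.5% were higher and 13.8% had an interval above 1. Chchd1, a small-subunit protein, was 26.9 and 31.7 FPKM (ratio 1.18, 1.03 to 1.34), and Aurkaip1 17.1 and 19.1 FPKM (ratio 1.12, 1.02 to 1.23). Gadd45gip1, of the large subunit, was 13.7 and 14.5 FPKM. Dap3, the GTP-binding protein of the small subunit, was 8.89 and 8.61 FPKM, and Ptcd3 15.1 and 15.3 FPKM.

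The genes that build and run the mitochondrial ribosome were listed beside its proteins. Of 26 measured assembly factors, 13 were higher and 13 lower; the median was 0.0020 (19 and 7 with equal FPKM sums, and a median of -0.011 with the median ratio of protein-coding genes set to 1). Fastkd2, an RNA-binding protein needed for the large subunit, was 5.99 and 7.06 FPKM (ratio 1.18, 1.08 to 1.28), Tfb1m, the dimethyltransferase of the small-subunit rRNA, 6.70 and 7.67 FPKM, and Rpusd3, a pseudouridine synthase family member, 4.52 and 3.88 FPKM. Among 15 translation factors 8 were higher and 7 lower (median 0.033), and with equal FPKM sums 11 and 4 (median 0.12). Taco1, an activator of Cox1 translation, was 4.29 and 4.94 FPKM, Slirp, which stabilises mitochondrial messenger RNA, 17.1 and 19.1 FPKM, and the initiation factor gene Mtif2 10.5 and 11.7 FPKM.

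Of 11 measured regulators of nuclear genes for mitochondria, 6 were higher and 4 lower; the median was 0.016 (10 and 1 with equal FPKM sums). Gabpa, Yy1 and Nrf1, whose motif letters were searched above, were 19.2 and 20.2, 20.9 and 21.2, and 4.92 and 5.23 FPKM. Myc was 4.91 and 5.74 FPKM (ratio 1.17, 1.02 to 1.35), Pprc1, a coactivator, 12.5 and 11.7 FPKM (ratio 0.933, 0.883 to 0.987), and Tfam, the packaging factor of mitochondrial DNA, 12.4 and 13.2 FPKM. Members with at least 1 of the 3 motifs in a promoter window had a median difference of 0.046 (24 of 38 higher), and those with none a median of 0.029 (21 of 31 higher). Their median levels were 11.4 and 7.74 FPKM as means over both libraries.

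Some of the genes start back to back with another. Such starts and shared exons were counted for these genes only, so the counts below have no background share over other genes. The 78 genes lie on 17 chromosomes, 11 of them on chromosome 11, and 26 had a protein-coding gene on the other strand whose start lay within 1000 bases upstream or 500 bases into the gene. These 26 form 25 pairs, since Mrpl46 of the large and Mrps11 of the small subunit are each other's partner, with starts that overlap by 412 bases. Mrpl46 was 12.2 and 13.0 FPKM and Mrps11 5.0 and 4.83 FPKM. In 23 pairs the partner was measured, and it differed in the same direction as the member in 10 and in the opposite direction in 13. Beside Mrpl51, for example, Ncapd2, a condensin gene, was 31.7 and 29.2 FPKM (ratio 0.921, 0.886 to 0.956). Exons of 33 of the 78 genes overlap those of another gene on either strand.

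The cytosolic ribosome gave another order of levels. Its 85 measured protein genes had medians of 168.9 and 161.6 FPKM, against 8.95 and 8.71 FPKM for the 78 mitochondrial ones. Of the cytosolic genes 28 were higher and 57 lower (median -0.036, against 0.013 for protein-coding genes). Among protein-coding genes 54.5% were higher and 44.5% lower. The interval of the ratio lay above 1 for 10 cytosolic genes and below 1 for 35, beside 13.8% and 8.76% of protein-coding genes, with reads per gene not matched. With equal FPKM sums 72 cytosolic genes were higher and 13 lower (median 0.058, against 0.090), when 79.1% of protein-coding genes were higher. The sign of the cytosolic median thus depended on the scaling, but it lay below the median of protein-coding genes both ways. No test of the difference between both sets was possible with 1 library per condition, and many cytosolic ribosomal protein genes have near-identical copies that can take reads.

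The table had denominators of 28.5 M and 27.8 M reads, of which its genes held 22.2 M and 21.4 M. Of the reads held by genes, the 78 genes had 0.232% and 0.242%. All 9 stem cell markers listed were measured, with medians of 103.7 and 98.0 FPKM. As labelled, 1 was higher and 8 lower, beside 54.5% and 44.5% of protein-coding genes. With equal FPKM sums 6 were higher and 3 lower. The interval of the ratio lay above 1 for 1 marker and below 1 for 6, beside 13.8% and 8.76% of protein-coding genes. Reads per gene were not matched here, and the part of the markers in the results was not tested. Of 8 fibroblast markers, which could mark other cells, 0 had a mean FPKM of at least 1.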

How the data were processed

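Total RNA libraries of 2 transfected cell samples were compared. The authors deposited FPKM with 2 decimals and, for each symbol, a gene length. Per the submitters' processing notes, STAR 2.4.0i, featureCounts 1.5.0-p1 and the mm10 build were used; no source used here gives the annotation, the strand setting or how multiply mapped reads were handled. The deposited gene length in the other numeric column is in bases.

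Whole reads were rebuilt from FPKM and length: among genes under 400 bases with fewer than 30 reads, 100% of 3121 and 3563 values were whole within rounding plus 0.005 reads. Rounding leaves at most 1.23 reads of doubt for a member. Levels have exact Poisson and ratios exact Clopper-Pearson 95% intervals, which cover counting error only. Differences use a pseudocount of 1 and genes of mean FPKM 1 or more. GENCODE M21 (GRCm38) gave exons and neighbours, RefSeq (GRCm38.p6) the promoters. No test between groups was possible with 1 library each. The steps for depth, reads and differences were tested on simulated data. Genes named are the 3 highest and lowest per subunit, the 5 largest differences each way, fixed role genes and the 3 largest differences per list; others were named after their values were seen. Members and lists were chosen with earlier results of these data known. Python 3.11.15, scipy 1.17.1 and pandas 2.3.3 were used.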

Additional observations from a re-analysis of the deposited data

How the results depend on the processing

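Alternatives were a pseudocount of 0.1, 2 other scalings, no filter, a mean FPKM of at least 5, genes free of shared exons, subunits by position, leaving out Mrps36, and 2 other rules of size; the main transcript length was added after seeing the data. With both libraries rescaled to the same sum, the median difference was 0.116 over all members, 0.115 for the large and 0.117 for the small subunit, and 10 members were lower. This scaling moves the median of all genes from 0.013 to 0.089, and 19 of 78 genes changed sign. Over all genes of mean FPKM 1 or more, the FPKM sums were 619677 and 580100. Over the protein-coding ones they were 141113 and 142239, so the unequal sums lay outside protein-coding genes. Under the other 7 settings the medians of all members stayed between 0.019 and 0.037. For the small subunit the median was 0.0067 at a mean FPKM of at least 5, with 21 genes. Without genes that share exons, 29 were higher and 16 lower of 45. Members at least 1.2-fold higher numbered 1 with the median ratio of protein-coding genes set to 1, 0 at 1.5-fold and 8 by the counting interval; members lower numbered 1 with a pseudocount of 0.1, 1 with the median ratio set to 1 and 1 by the interval. The ratios of large to small median levels were 1.57 and 1.71 without shared exons, 1.37 and 1.43 by position and 1.1 and 1.2 with the main transcript length. The 3 members at least 1.2-fold apart kept their sign under the pseudocount and the scalings, but this says nothing about how firm they are. A pseudocount cannot change a sign, equal sums move all values up, as these 3 already were, and the other scaling moved values little. No paired analysis was possible because each group has 1 library. Leaving out a replicate was not run for the same reason. Depth limits single genes: for 69 of the 78 the counting interval of the ratio held 1.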
